A study of Mus musculus with 17 samples.

Results

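The 9 genes described here are Asns, Trib3, Ddit3, Atf4, Atf3, Chac1, Psat1, Phgdh and Sesn2, a set named for the integrated stress response that cells mount when amino acids run short. They were taken by gene symbol from tables of 55536 genes, and all 9 were found there. Each was measured by RNA-seq in 6 DLK1DWRE and 5 ROSA26 libraries of mouse hepatocytes. In the DLK1DWRE group the edit hit a β-catenin binding site that lies upstream of the imprinted DLK1/DIO3 cluster, and in the ROSA26 group the Rosa26 locus, a common neutral site, was edited instead.

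Both groups shared everything else the labels give. All mice were C57BL/6J with the ApcDHep genotype, a loss of Apc in hepatocytes that leaves β-catenin signalling unchecked, so the ROSA26 libraries are controls for the edit and not normal liver. Mice were 3 months old, had received AAV8 with SaCas9 constructs 1 month before, and were given 2 mg of tamoxifen over a 7-day treatment. AAV8 is a viral vector that reaches hepatocytes, and SaCas9 is a compact nuclease that cuts at the site its guide names. Liver was dissociated with collagenase and RNA was taken from the isolated hepatocytes, which hold edited and unedited cells together. The share of edited cells is not analysed here. Nothing in the labels says that each library came from a separate mouse, so the p-values rest on the spread among these libraries, which may be technical.

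Cells sense a lack of amino acids through GCN2, a kinase that binds uncharged transfer RNA and phosphorylates the initiation factor eIF2α. General translation then slows, while the messenger RNA of Atf4 is translated more, so that ATF4 activity can change without a change in its RNA. ATF4 is a transcription factor that binds C/EBP-ATF response elements (CARE) and switches on genes for making, importing and sparing amino acids. In liver, a large consumer of amino acids, the same arm also answers endoplasmic reticulum stress, mitochondrial stress and haem shortage through sister kinases.

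The promoters of the 9 genes were searched for the core of the CARE, TGATGNAA, on both strands, because this element links the genes to ATF4. All 9 had a promoter in the RefSeq table of GRCm38.p6, which spans 250 bases before and 50 bases after the start. The core was present in 4 of them, Asns, Atf3, Chac1 and Trib3, against 4.51% of all 27025 genes with a promoter of that length in the table. Below, 60 bases are printed 5′ to 3′ on the strand of each gene for the 3 genes whose match lay before the start, with the match in capitals. It reads TGATGAAA in Asns and as the reverse strand form TTGCATCA in Atf3 and Chac1.
Asns: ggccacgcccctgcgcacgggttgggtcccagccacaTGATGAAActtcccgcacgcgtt
Atf3: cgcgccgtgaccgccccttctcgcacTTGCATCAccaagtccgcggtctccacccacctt
Chac1: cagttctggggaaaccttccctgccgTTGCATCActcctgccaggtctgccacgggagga
The Asns stretch is chr6:7693210-7693269 on the minus strand, and 15 bases lie between its match and the start. The Atf3 stretch is chr1:191183410-191183469 on the minus strand, with 102 bases between the match and the start. The Chac1 stretch is chr2:119351023-119351082 on the plus strand, with 185 bases in between. The Trib3 match, TTACATCA, began at base 15 after the start. The cyclic AMP response element TGACGTCA was in none of the 9 promoters and in those of 2.03% of all genes. A match is a run of letters and does not show binding, and these data hold no measurement of ATF4 on DNA.

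The library names carry 3 codes, r770, r711 and r595, which are called runs here. The names do not say what the codes stand for. Run r770 held 3 DLK1DWRE and 3 ROSA26 libraries, run r711 held 2 DLK1DWRE libraries and no ROSA26 library, and run r595 held 1 DLK1DWRE and 2 ROSA26 libraries. Totals were 20727036 to 38935135 expected counts per library. Mitochondrial ribosomal RNA took 1.01% to 1.56% of TPM (transcript abundance corrected for length, scaled to the library) in r595 and 9.47% to 20.0% in the other runs, so TPM levels were not compared across runs. DLK1DWRE libraries 4 (run r711) and 6 (run r595) carry the same number in their names, and the labels do not say whether they came from 1 animal. All 9 hepatocyte markers were detected, with summed levels of 54484 to 59640 CPM (read counts scaled to library size) in DLK1DWRE libraries and 50412 to 60213 CPM in ROSA26 libraries. Rian, a noncoding RNA of the DLK1/DIO3 locus and the check of the edit, was at 74.4 ± 27.1 CPM in DLK1DWRE libraries (SD, n = 6) and at 283 ± 97.7 CPM in ROSA26 libraries (SD, n = 5), with no overlap. It was the 1 gene of 14393 tested that passed an adjusted p of 0.05 by edgeR's quasi-likelihood test with Benjamini-Hochberg adjustment, or 0.00695% of genes (log2 fold change -2.30 ± 0.26 SE, adjusted p = 0.0188). Its adjusted p was above 0.05 when any 1 of DLK1DWRE libraries 2 to 6 or ROSA26 library 2 was left out, up to 0.317, while its log2 fold change stayed between -2.45 and -2.11.

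Between the groups, 0 of the 9 ATF4 genes passed that test. Of the 9, 7 were counted highly enough to be tested, and Chac1 and Phgdh were not. The gene nearest to the threshold was Asns, with a p of 0.00271 before and 0.384 after adjustment. The fit, which compares the groups within runs, put it at 2.93 times the ROSA26 level, a log2 fold change of 1.55. With no run term the log2 fold change of Asns was 1.25. Asns was the 1 member at an unadjusted p under 0.05, against 10.1% of all genes tested (4.95% higher and 5.14% lower in DLK1DWRE libraries). DESeq2 called 1 member, Asns again, at an adjusted p of 0.0313, and it called 83 of all genes, or 0.577%. The 7 log2 fold changes were positive for 5 and negative for 2, with a median of 0.34, against a median of 0.01 and 51.7% positive over all genes tested. The median log2 CPM of the 7 genes in a library varied between libraries of 1 group and run with an SD of 0.34. That SD describes single libraries and is not the error of the median fold change. No member had every DLK1DWRE library above or below every ROSA26 library, which 0.375% of all genes tested did.

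**Figure D1:**
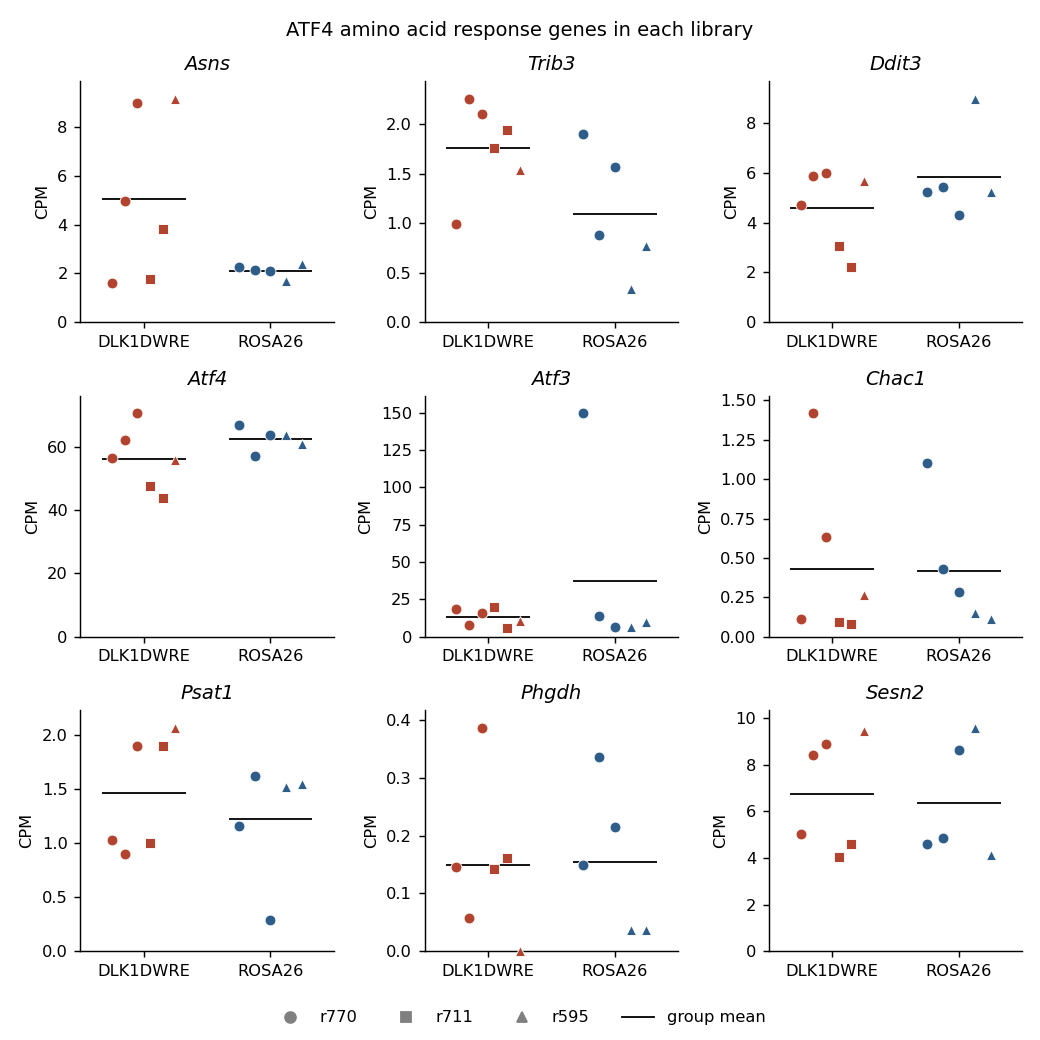
Each point is 1 library, with its level in CPM on an axis that starts at 0; colours and columns mark the group, shapes mark the run, and lines are group means. Asns reaches 9.16 CPM in the DLK1DWRE group while the 5 ROSA26 libraries sit between 1.70 and 2.39 CPM, Atf3 has 1 ROSA26 library at 149.4 CPM, and the groups overlap in all 9 genes.

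Levels of the 9 genes were compared with each other in TPM, which corrects for transcript length. Atf4 was the most abundant, with a median of 23.98 TPM over the 11 libraries, and Atf3 followed with 5.48 TPM. Ddit3 had a median of 4.33 TPM, Asns 1.42 TPM and Sesn2 1.19 TPM. Trib3 was at 0.61 TPM, Psat1 at 0.41 TPM, Chac1 at 0.12 TPM and Phgdh at 0.09 TPM. Atf4 was above Atf3 in 10 of 11 libraries, Ddit3 was above Asns in 11 of 11, and Sesn2 was above Trib3 in 11 of 11. The other neighbours changed places between libraries: Atf3 was above Ddit3 in 7, Asns above Sesn2 in 8, Trib3 above Psat1 in 6, Psat1 above Chac1 in 9 and Chac1 above Phgdh in 4. Enzymes of serine synthesis thus stood at the low end of the set, and the transcription factors at the high end.

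Atf4, the transcription factor at the head of the pathway, lies at chr15:80255184-80257545. It was at 56.3, 62.2, 70.5, 47.6, 43.7 and 55.8 CPM in DLK1DWRE libraries 1 to 6, against 67.0, 57.2, 63.8, 63.8 and 60.9 CPM in ROSA26 libraries 1 to 5. The 2 lowest values belong to run r711, which had no ROSA26 library, and the highest to DLK1DWRE library 3. The groups overlapped, with means of 56.0 ± 9.71 CPM in DLK1DWRE libraries (SD, n = 6) and 62.6 ± 3.69 CPM in ROSA26 libraries (SD, n = 5). The log2 fold change was -0.04 ± 0.11 SE, with an adjusted p of 0.896 by edgeR, and the difference of mean log2 CPM was 0.00 within r770 and -0.16 within r595. Atf4 was also the steadiest of the 7 tested genes: its SD within group and run was 0.122 on the log2 CPM scale, larger than that of 14.4% of genes at a like level.

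Asns encodes asparagine synthetase, which makes asparagine from aspartate with nitrogen from glutamine, and lies at chr6:7675165-7693209. Its level was 1.61, 4.97, 8.98, 1.76, 3.84 and 9.16 CPM in DLK1DWRE libraries 1 to 6, against 2.26, 2.14, 2.10, 1.70 and 2.39 CPM in ROSA26 libraries 1 to 5. Behind these stood 44, 172, 256, 37, 95 and 209 reads in DLK1DWRE libraries and 76, 70, 59, 46 and 65 reads in ROSA26 libraries. The ROSA26 libraries lay close together. In the DLK1DWRE group 4 libraries were above all of them, library 1 was below all of them, and library 4 was among them. Group means were 5.05 ± 3.36 CPM in DLK1DWRE libraries (SD, n = 6) and 2.12 ± 0.258 CPM in ROSA26 libraries (SD, n = 5).

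The log2 fold change of Asns was 1.55 ± 0.41 SE, and it was the 95th smallest p of 14393 genes. The difference of mean log2 CPM was 0.93 within r770, over 3 libraries a group, and 2.15 within r595, over 1 DLK1DWRE and 2 ROSA26 libraries. A test of the difference between these runs gave an unadjusted p of 0.321 and an adjusted p of 0.841 by edgeR. Leaving out DLK1DWRE library 1 gave a log2 fold change of 1.86 (adjusted p = 0.0808), and leaving out library 3 gave 1.21 (adjusted p = 0.863), both by edgeR. Over all alternatives its adjusted p ran from 1.75e-07 with no filter on low counts, where each gene was given the spread of genes at a like level, to 0.998 by edgeR with a replicate block. The DLK1DWRE libraries that share a number stood at 1.76 CPM (library 4, r711) and 9.16 CPM (library 6, r595).

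The 2 libraries highest in Asns, DLK1DWRE 3 and 6, also had the lowest summed levels of 14 cell cycle genes, 75.0 and 77.3 CPM, against 112.0 to 194.8 CPM in the other DLK1DWRE libraries and 134.8 to 171.0 CPM in ROSA26 libraries. DLK1DWRE libraries 2 and 5 were also above every ROSA26 library in Asns. Library 2 had 112.2 CPM of the cell cycle genes, and library 5 had the highest sum of all, 194.8 CPM. DLK1DWRE library 1, the lowest in Asns, had 112.0 CPM. Of the 14 cell cycle genes, 12 were lower in DLK1DWRE libraries at an unadjusted p under 0.05, against 5.14% of all genes tested. After adjustment 0 passed by edgeR and 7 by DESeq2, which called 0.577% of all genes tested. DLK1DWRE libraries 3 and 6 had the lowest summed levels of 9 stellate cell and fibroblast markers, 41.4 and 40.5 CPM, against 52.1 to 105.1 CPM in the other DLK1DWRE libraries and 71.2 to 101.6 CPM in ROSA26 libraries. DLK1DWRE libraries 2 and 5 were at 52.1 and 88.8 CPM of these markers. Among markers of other cell types, log2 fold changes were negative for 8 of 8 tested stellate and fibroblast, 7 of 7 macrophage and 6 of 7 endothelial markers. They were also negative for 4 of 4 neutrophil, 2 of 2 lymphocyte, 4 of 5 erythroid and 1 of 2 cholangiocyte markers. None of them passed after adjustment by edgeR. Outside the cholangiocyte list, 5 were lower and 1 was higher at an unadjusted p under 0.05. In that list Sox9 was higher, with a log2 fold change of 0.92 (unadjusted p = 0.0180 by edgeR). DESeq2 called 1 marker, Hba-a1 of the erythroid list. In these bulk samples, fewer cells of a type and less RNA per cell cannot be told apart. The part of the cell cycle genes or of these markers in the Asns difference was not tested.

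The length that the authors' counting software assigned to Asns also differed between the groups. This effective length, an average over the 7 transcripts of the gene weighted by their estimated share, was 1846, 1794, 1717, 1341, 1410 and 1862 bases in DLK1DWRE libraries 1 to 6. It was 1429, 838, 1534, 1100 and 1335 bases in ROSA26 libraries 1 to 5. All 4 DLK1DWRE libraries of r770 and r595 were above every ROSA26 library. In TPM, which divides by that length, Asns was within r770 at 0.51, 1.90 and 2.82 in DLK1DWRE libraries 1 to 3, against 0.95, 1.42 and 0.99 in ROSA26 libraries 1 to 3. Within r595 it was at 3.29 TPM in DLK1DWRE library 6, against 1.36 and 1.51 TPM in ROSA26 libraries 4 and 5. With the effective lengths entered in the fit, the log2 fold change was 0.97, with an unadjusted p of 0.0425 and an adjusted p of 0.560 by edgeR. At 37 to 256 reads a library, the transcript shares rest on few reads.

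**Figure D2:**
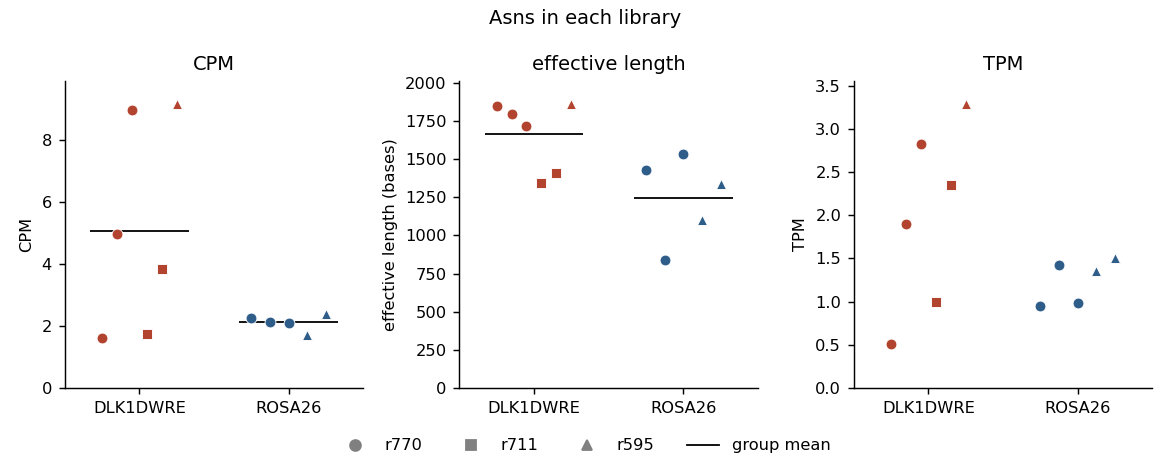
Asns in each library in CPM, effective length in bases and TPM, on axes that start at 0; points are libraries, shapes are runs, and lines are group means, left out for TPM, which is to be read within a run. The effective length averages 1662 bases in the DLK1DWRE group and 1247 bases in the ROSA26 group, and in TPM the r770 libraries lie at 0.51 to 2.82 in the DLK1DWRE group and at 0.95 to 1.42 in the ROSA26 group.

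Psat1 and Phgdh encode enzymes of serine synthesis from a glycolytic intermediate, phosphoserine aminotransferase and phosphoglycerate dehydrogenase. Psat1, at chr19:15905123-15925059, was at 1.02, 0.897, 1.89, 0.999, 1.90 and 2.06 CPM in DLK1DWRE libraries 1 to 6, against 1.16, 1.62, 0.285, 1.52 and 1.54 CPM in ROSA26 libraries 1 to 5. The DLK1DWRE libraries fell into 3 near 1 and 3 near 2 CPM, and the lowest library of all in CPM was ROSA26 library 3, with 8 reads. The effective length of Psat1 ran from 709 bases in that library to 2441 bases in ROSA26 library 2. In TPM within r770, ROSA26 library 3 was at 0.29 and DLK1DWRE library 1 at 0.28. The groups overlapped, with a log2 fold change of 0.34 ± 0.43 SE and an adjusted p of 0.786 by edgeR. Without ROSA26 library 3 the log2 fold change was 0.08.

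Phgdh, at chr3:98313171-98339969, was close to undetected. It had 4, 2, 11, 3, 4 and 0 reads in DLK1DWRE libraries 1 to 6, against 5, 11, 6, 1 and 1 reads in ROSA26 libraries 1 to 5. That is 24 reads in each group, and no difference was detected at this depth. A fit with no filter on low counts, which gave each gene the spread of genes at a like level, put its log2 fold change at -0.47 ± 0.95 SE, with an adjusted p of 0.925 by edgeR.

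Sesn2 encodes sestrin 2, a leucine-binding protein that restrains the growth kinase mTORC1, and lies at chr4:132492804-132510456. It was at 5.05, 8.42, 8.91, 4.04, 4.61 and 9.47 CPM in DLK1DWRE libraries 1 to 6, against 4.61, 4.85, 8.63, 9.58 and 4.11 CPM in ROSA26 libraries 1 to 5. The libraries stood at 2 levels with none in between: 5 of them, 3 DLK1DWRE and 2 ROSA26, were at 8.42 to 9.58 CPM, and the other 6 were at 4.04 to 5.05 CPM. Both levels occurred in both groups and in runs r770 and r595, so the pattern crosses the comparison. Sesn2 had a log2 fold change of 0.36 ± 0.27 SE, with an adjusted p of 0.650 by edgeR. The 3 DLK1DWRE libraries at the upper Sesn2 level, 2, 3 and 6, were also the 3 with the most Asns, while the 2 ROSA26 libraries at that level, 3 and 4, had 2.10 and 1.70 CPM of Asns, the lowest 2 of their group.

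Ddit3 and Trib3 stand for the late, damaging side of the response. Ddit3 encodes CHOP, a transcription factor linked to cell death after prolonged stress, and Trib3 a pseudokinase that CHOP and ATF4 switch on and that dampens ATF4. Ddit3, at chr10:127290793-127296291, was at 4.72, 5.90, 6.00, 3.04, 2.22 and 5.70 CPM in DLK1DWRE libraries 1 to 6, against 5.24, 5.43, 4.32, 8.99 and 5.25 CPM in ROSA26 libraries 1 to 5. The 2 lowest libraries were those of r711, and the highest was ROSA26 library 4 of r595. Ddit3 had a log2 fold change of 0.01 ± 0.20 SE, with an adjusted p of 0.991 by edgeR, and its sign turned when single libraries were left out. Ddit3 overlaps Mbd6 and Mars1 on the genome, and no source used here states whether counting used strand, so reads of these genes may be mixed.

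Trib3, at chr2:152337425-152344060, was at 0.988, 2.26, 2.10, 1.76, 1.94 and 1.53 CPM in DLK1DWRE libraries 1 to 6, against 1.90, 0.885, 1.57, 0.333 and 0.771 CPM in ROSA26 libraries 1 to 5. In the DLK1DWRE group 3 libraries were above every ROSA26 library, and none was below them all. Means were 1.76 ± 0.457 CPM in DLK1DWRE libraries (SD, n = 6) and 1.09 ± 0.634 CPM in ROSA26 libraries (SD, n = 5). The log2 fold change was 0.64 ± 0.38 SE, with an adjusted p of 0.569 by edgeR, and the difference of mean log2 CPM was 0.26 within r770 and 1.46 within r595. Without DLK1DWRE library 6, the only DLK1DWRE library of r595, the log2 fold change was 0.30. ROSA26 library 4 had the least Trib3, 9 reads, and the most Ddit3.

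Chac1, at chr2:119351242-119354326, encodes an enzyme that breaks down glutathione. It had 3, 49, 18, 2, 2 and 6 reads in DLK1DWRE libraries 1 to 6, against 37, 14, 8, 4 and 3 reads in ROSA26 libraries 1 to 5. One library of each group stood apart, DLK1DWRE library 2 at 1.42 CPM and ROSA26 library 1 at 1.10 CPM. Group means were 0.433 ± 0.525 CPM in DLK1DWRE libraries (SD, n = 6) and 0.414 ± 0.404 CPM in ROSA26 libraries (SD, n = 5). The fit with no filter gave a log2 fold change of 0.44 ± 0.59 SE, with an adjusted p of 0.844 by edgeR, and it was -0.16 without DLK1DWRE library 2.

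Atf3, a transcription factor of the same family that many stresses and wounding induce within minutes, lies at chr1:191170296-191183333. It was at 18.7, 7.87, 15.7, 19.9, 6.02 and 10.8 CPM in DLK1DWRE libraries 1 to 6, against 149.4, 14.1, 6.49, 6.55 and 10.1 CPM in ROSA26 libraries 1 to 5. ROSA26 library 1 alone, with 5021 reads, was far above the rest, and the other 4 ROSA26 libraries lay within the DLK1DWRE range. The log2 fold change was -1.26 ± 0.96 SE, with an adjusted p of 0.656 by edgeR. Without ROSA26 library 1 it was 0.43, with an unadjusted p of 0.323 and an adjusted p of 0.784, so 1 library set the direction. The adjusted p of Atf3 by edgeR ran from 1.10e-10 with no filter to 0.998 with a replicate block.

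ROSA26 library 1 was also high in many, but not all, of a list of genes that tissue dissociation induces within minutes. The summed level of 14 such early genes, a list that does not hold Atf3, was 197.1 to 458.1 CPM in DLK1DWRE libraries, 1058 CPM in ROSA26 library 1 and 238.2 to 399.9 CPM in the other ROSA26 libraries. Fos, a subunit of the AP-1 transcription factor, was at 65.0 CPM in that library, against 4.36 to 22.3 CPM in DLK1DWRE libraries. Btg2, a gene that slows proliferation, was at 191.5 CPM there, against 18.9 to 35.3 CPM in DLK1DWRE libraries. Of the 14 early genes 0 passed at an unadjusted p under 0.05, against 10.1% of all genes tested. Negative log2 fold changes were found for 11 of the 14, while 51.7% of all genes tested had positive ones. The part of the early response in the Atf3 level was not tested.

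**Figure D3:**
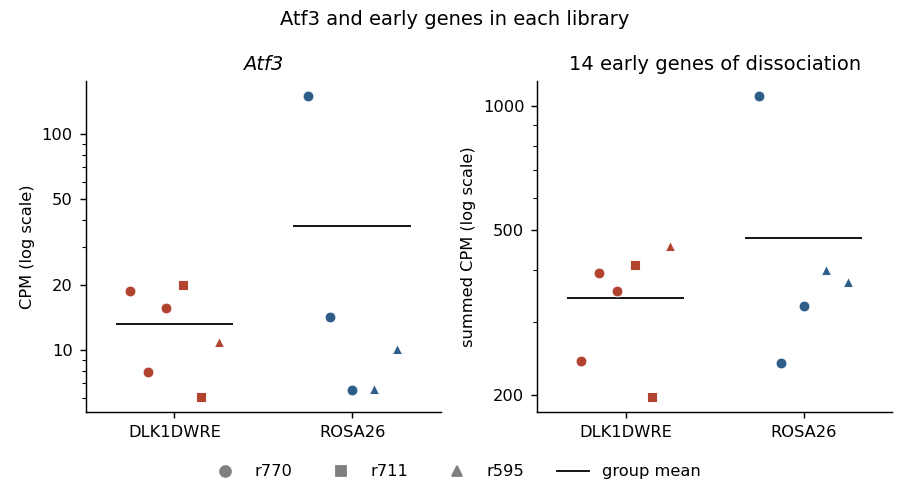
Left, Atf3 in CPM, and right, the summed CPM of 14 early genes of dissociation, both on log axes; points are libraries, shapes are runs and lines are arithmetic group means. ROSA26 library 1 is the highest point in both panels, at 149.4 and 1058 CPM.

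The 7 tested genes differed in how much they varied between libraries of 1 group and run. The SD of log2 CPM was 1.503 for Atf3, larger than that of 99.9% of genes within 0.5 log2 units of its level. It was 0.791 for Asns, larger than that of 96.5% of genes at a like level, and 0.522 for Sesn2, larger than that of 90.5%. Psat1 had an SD of 0.795 (above 87.8%), Trib3 of 0.571 (above 67.5%) and Ddit3 of 0.296 (above 52.1%). The members thus ranged from among the most variable genes of their level, Atf3 and Asns, to Atf4, among the steadier ones.

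**Figure D4:**
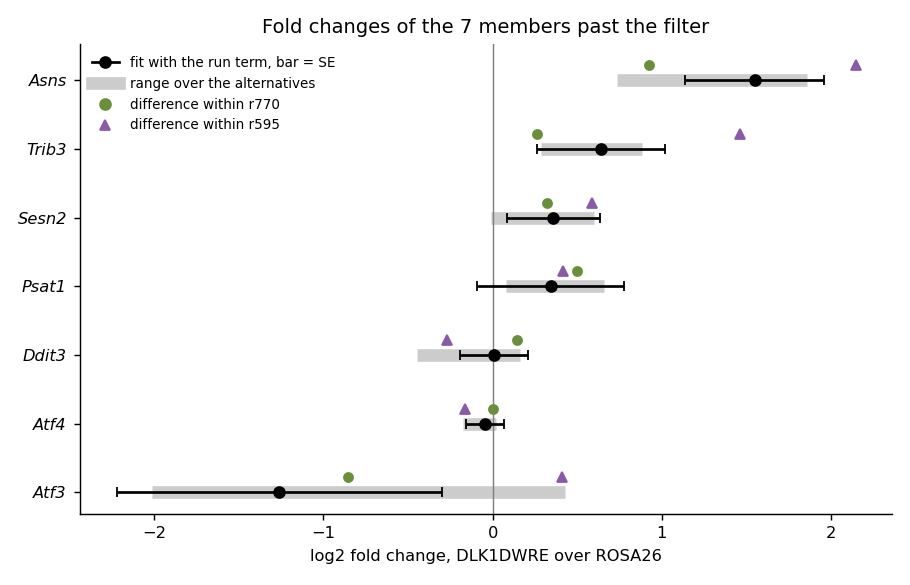
Log2 fold changes, DLK1DWRE over ROSA26, of the 7 genes past the filter; black points and bars are the fit with its SE, grey bands span the alternative settings, and coloured points are differences of mean log2 CPM within r770 and r595. Asns is at 1.55 ± 0.41 and stays above 0 in every setting shown, and the band of Atf3 runs from -2.01 to 0.43.

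The wider pathway was described with 5 lists of genes that are no members: the eIF2α kinases and their regulators, enzymes of serine, glycine, one-carbon and proline synthesis, amino acid transporters, aminoacyl-tRNA synthetases, and other ATF4 targets. The lists were chosen with earlier results of these data known, so counts over them are descriptions. Of 62 genes tested in these lists, 0 passed the adjusted threshold by edgeR and 0 by DESeq2. At an unadjusted p under 0.05 were 10 of them, or 16.1%, with 9 higher and 1 lower in DLK1DWRE libraries, against 10.1% of all genes tested (4.95% higher and 5.14% lower). Their median log2 fold change was 0.05 and 61.3% were positive, against 0.01 and 51.7% of all genes tested. Without DLK1DWRE library 6, 2 genes of these lists were at that p, both among the other ATF4 targets, and 607 of all genes tested were, against 1453 with it.

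Among the 13 tested of the other ATF4 targets, 6 were higher in DLK1DWRE libraries at an unadjusted p under 0.05 and 0 were lower, where 4.95% of all genes tested were higher and 5.14% lower. The median log2 fold change of the list was 0.45, and 11 of the 13 were positive. These counts describe a list chosen with earlier results of these data known. Eif4ebp1, an inhibitor of cap-dependent translation, was at 14.8, 20.8, 22.3, 13.2, 16.5 and 18.9 CPM in DLK1DWRE libraries 1 to 6, against 14.01, 15.3, 12.9, 9.99 and 10.2 CPM in ROSA26 libraries 1 to 5. In the DLK1DWRE group 4 libraries exceeded every ROSA26 library, and the log2 fold change was 0.60 ± 0.15 SE (adjusted p = 0.350 by edgeR). Only Nupr1 and Cebpb of this list had a larger log2 fold change among the 4 genes of smallest p.

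Cebpb, a transcription factor that pairs with ATF4 at CARE sequences, averaged 57.1 ± 21.7 CPM in DLK1DWRE libraries and 43.9 ± 10.5 CPM in ROSA26 libraries, with a log2 fold change of 0.65 ± 0.18 SE (adjusted p = 0.384 by edgeR). Nupr1, a small stress-induced chromatin protein, had a log2 fold change of 1.262 ± 0.40 SE (adjusted p = 0.422 by edgeR). Its median over all libraries was nonetheless 1.07 CPM in DLK1DWRE and 1.25 CPM in ROSA26 libraries, since the run r711 libraries were low, at 0.618 and 0.525 CPM, and the fold change is taken within runs. Sqstm1, the autophagy receptor p62, averaged 517.4 ± 96.5 CPM in DLK1DWRE libraries and 403.6 ± 63.7 CPM in ROSA26 libraries, with a log2 fold change of 0.47 ± 0.15 SE (adjusted p = 0.427 by edgeR). With run r770 alone, 2 genes of this list were at an unadjusted p under 0.05, and with no run term 3.

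Upstream of ATF4, the median log2 fold change over 16 kinases and regulators of eIF2α was -0.07. Of these, 1 was at an unadjusted p under 0.05, against 10.1% of all genes tested. That gene was Eif2ak1, the haem-regulated kinase HRI, which was at 29.9 to 39.9 CPM in the 6 DLK1DWRE libraries, against 22.5 to 28.9 CPM in the 5 ROSA26 libraries. The groups did not overlap, as for 0.375% of all genes tested, and the gene is the one of smallest p in its list. Its log2 fold change was 0.34 ± 0.11 SE (adjusted p = 0.427 by edgeR), and without DLK1DWRE library 6 it was 0.27, no longer at an unadjusted p under 0.05. Eif2ak2, the RNA-activated kinase PKR, was at 38.3 ± 4.59 CPM in DLK1DWRE libraries and 48.3 ± 9.41 CPM in ROSA26 libraries, with a log2 fold change of -0.33 ± 0.16 SE (adjusted p = 0.506 by edgeR).

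Amino acid transporters had fold changes of both signs. Of 10 tested, 1 was higher and 1 was lower in DLK1DWRE libraries at an unadjusted p under 0.05. Of all genes tested, 4.95% were higher and 5.14% lower at that p. Slc38a7, a lysosomal glutamine and asparagine exporter, had a log2 fold change of 0.34 ± 0.14 SE (adjusted p = 0.447 by edgeR). Slc1a5, a transporter of glutamine and other neutral amino acids, was at 21.0 ± 2.95 CPM in DLK1DWRE libraries and 27.3 ± 7.66 CPM in ROSA26 libraries, with a log2 fold change of -0.46 ± 0.20 SE (adjusted p = 0.469 by edgeR).

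For the 13 enzymes that charge transfer RNA and their export factor, log2 fold changes were positive for 11 and negative for 2, with a median of 0.06. At an unadjusted p under 0.05 was 1 of the 13, against 10.1% of all genes tested. It was Yars, the tyrosine enzyme, at 0.30 ± 0.13 SE on that scale (adjusted p = 0.464 by edgeR). Mars, the methionine enzyme and a genomic neighbour that overlaps Ddit3, was at 0.18 ± 0.10 SE (adjusted p = 0.564 by edgeR). Of 10 tested genes of serine, glycine, one-carbon and proline synthesis, 0 were at an unadjusted p under 0.05, with a median of -0.01. Shmt2, which feeds the mitochondrial one-carbon pool, had the smallest p among them, with a log2 fold change of 0.25 ± 0.14 SE (adjusted p = 0.539 by edgeR).

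**Figure D5:**
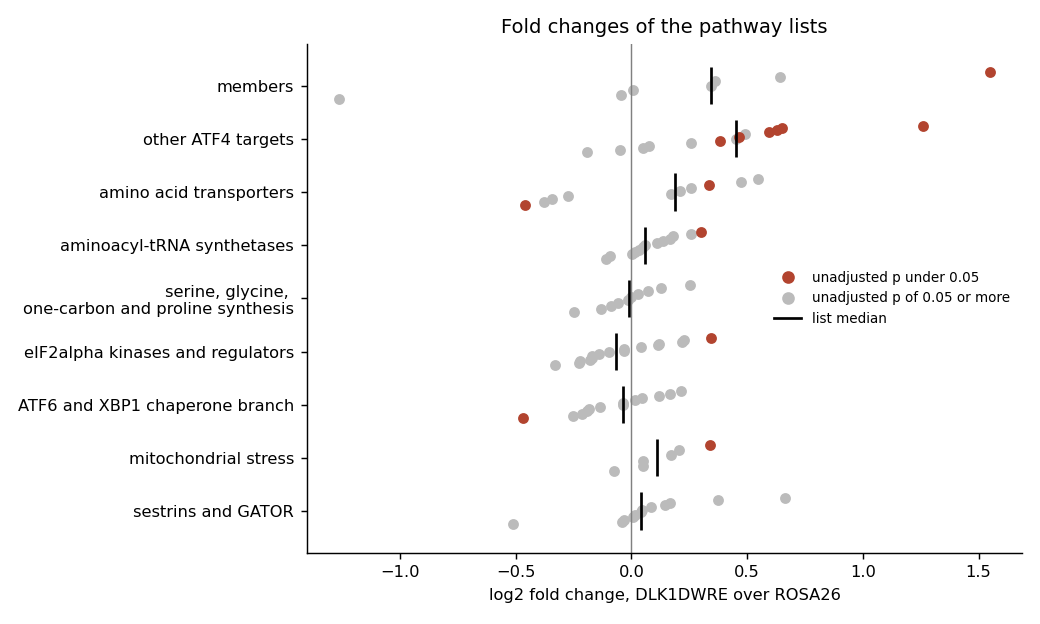
Log2 fold changes, DLK1DWRE over ROSA26, of the tested genes of each list; red points have an unadjusted p under 0.05, grey points do not, and black bars are list medians. The median of the other ATF4 targets is at 0.45 and that of the 7 tested members at 0.34, and no gene shown passed after adjustment over all genes.

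Of the neighbouring stress programmes, the chaperone branch under ATF6 and XBP1 had 5 positive log2 fold changes among 13 genes, with a median of -0.04. At an unadjusted p under 0.05 was 1 of these genes, against 10.1% of all genes tested. That gene was Dnajb9, a cochaperone of the reticulum, at -0.47 ± 0.20 SE (adjusted p = 0.468 by edgeR). Of 6 genes of mitochondrial stress 5 were positive, with a median of 0.11. Lonp1, a matrix protease, was the 1 gene of that list at such a p, with a log2 fold change of 0.34 ± 0.12 SE (adjusted p = 0.441 by edgeR). Of 12 other sestrin and GATOR genes, which pass amino acid levels to mTORC1, 0 were at such a p and 9 were positive, with a median of 0.04, and Sesn3 had the smallest p with a log2 fold change of 0.37 ± 0.20 SE (adjusted p = 0.532 by edgeR).

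Whether the group difference varied between runs was tested on the 9 libraries of r770 and r595, where r595 held 1 DLK1DWRE library. It called 0 of 14582 genes by edgeR, with 951 at an unadjusted p under 0.05. Among the 7 tested members the unadjusted p of that edgeR test was 0.198 for Trib3, 0.269 for Atf3, 0.307 for Ddit3, 0.321 for Asns, 0.538 for Atf4, 0.821 for Sesn2 and 0.903 for Psat1.

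The genes most like the members across libraries were found by correlating every tested gene with the mean standardised log2 CPM of the 7 tested members, after run means were subtracted, over the 11 libraries. The mean of the members was highest in DLK1DWRE library 3 and lowest in DLK1DWRE library 1, both of r770. The 10 genes outside the set with the highest Pearson's r were Ctsf (0.959), B4gat1 (0.931), Ugt1a9 (0.930), Zdhhc12 (0.923), Cnst (0.918), Map3k3 (0.916), Acot1 (0.916), Chid1 (0.909), Tmbim6 (0.907) and Ralgps2 (0.907). Ctsf encodes a lysosomal cysteine protease, Ugt1a9 a glucuronidation enzyme and Acot1 a cytosolic acyl-CoA thioesterase. The members themselves had r of 0.734 for Asns, 0.584 for Atf4, 0.579 for Trib3, 0.484 for Psat1, 0.475 for Sesn2, 0.472 for Ddit3 and 0.287 for Atf3, each counted in its own mean. All these values share the same 11 libraries and their depths, and they are descriptions.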

How the data were processed

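RNA-seq values were expected counts per gene, which the authors obtained from GRCm38, STAR 2.7.6a and RSEM 1.3.1 (submitters' processing notes). The same deposited tables give TPM and, as another value, effective length. A deposited matrix of normalized signal, from R 3.6.3 and DESeq2 1.26.0 by the submitters' notes, served as a check (Spearman's rho 0.994 to 0.998 per library over 14391 genes with the log2 CPM used here). No source used here gives the annotation version or strand setting. The 6 miRNA-seq libraries were not used.

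Expected counts were rounded. Of 55536 gene identifiers 55450 had a symbol. Where a symbol had several identifiers, the one with the most counts was taken. edgeR 4.0.16 in R 4.3.3 was used with filterByExpr by group (minimum count 10, minimum total 15), a robust quasi-likelihood fit of run and group with TMM factors, two-sided, over 14393 genes with 7 residual degrees of freedom. The effect therefore comes from r770 and r595, while r711 adds to the estimate of the spread alone. Standard errors are the log2 fold change over the root of the F statistic. The threshold was an adjusted p of 0.05 (Benjamini-Hochberg). CPM carry TMM factors, and log2 CPM has a prior count of 2. DESeq2 1.42.0 was an alternative. The fit was also run on simulated counts that held no run differences, so its handling of such differences was not tested. Every pair of replicates differed beyond sampling noise (chi-square per degree of freedom of at least 24.6).

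The members and lists were chosen with earlier results of these data known. Named outside the 9 members were Rian, up to 4 genes per list by smallest p, the early genes Ier3, Myc and Socs3, and the 10 genes of highest likeness. The summed levels of the markers of cholangiocytes, endothelium, macrophages, neutrophils, lymphocytes and erythroid cells were 6.09 to 13.3, 108.6 to 173.7, 185.6 to 289.2, 5.35 to 7.03, 14.5 to 25.2 and 8.35 to 11.4 CPM in DLK1DWRE libraries. In ROSA26 libraries they were 7.14 to 24.3, 117.1 to 178.3, 180.5 to 703.4, 4.78 to 22.0, 16.9 to 41.6 and 7.82 to 32.1 CPM. Positions are 1-based, from RefSeq on GRCm38.p6.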

Additional observations from a re-analysis of the deposited data

Results flagged for a closer look

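Of 18 sets of CPM values checked, 1 for each of the 9 genes in each group, 2 held a library far from the others, and chance marks about 1 in 20 such sets. Atf3 was at 149.4 CPM in ROSA26 library 1, and the next library of that group, ROSA26 library 2, was at 14.1 CPM, so the gap took 0.947 of the whole range against a critical value of 0.71. Ddit3 was at 8.988 CPM in ROSA26 library 4, with the next library, ROSA26 library 2, at 5.43 CPM and a gap of 0.762 of the range.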

How the results depend on the processing

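The count of genes called over the whole table was 1 by edgeR, 450 with no filter on low counts, 83 by DESeq2, 2 with a replicate block and the run term, 0 with no run term, 0 with r770 alone, 0 without run r711, and 0 to 2 when single libraries were left out. Members called were 0, except for 2 with no filter (Asns, adjusted p = 1.75e-07, and Atf3, adjusted p = 1.10e-10, both by edgeR) and 1 by DESeq2 (Asns). The fit with no filter gave each gene the spread of genes at a like level (an infinite prior weight, against a prior of 5.60 degrees of freedom with the filter), so it disregards how much Asns and Atf3 vary. It also raised the run-by-group calls to 251. The median log2 fold change of the 7 members was 0.08 to 0.43 when single libraries were left out and -0.0088 with a replicate block in place of the run term. After group means were subtracted, same-numbered libraries had correlations of -0.090 to 0.178, and the others of -0.367 to 0.399. Run means were not subtracted there, so this check cannot decide whether replicate numbers pair the libraries. With the replicate block and run term Asns was at 0.99.

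Signs turned as follows, and the cause was not tested. Ddit3 was at -0.34 with no run term, -0.45 with the block alone, -0.33 with DLK1DWRE libraries 4 and 6 summed, and -0.068 to 0.15 over single libraries left out. Atf4 was at 0.0048 with the block and run term, 0.020 with r770 alone, and -0.11 to 0.0075 over single libraries left out. Chac1 was at -0.057 with the block alone, and at -0.16 to 1.02 over single libraries left out. Phgdh was at 0.31 with the block alone, 0.039 with the libraries summed and 0.15 with effective lengths. With the block alone Sesn2 was at -0.0088, Shmt2 at -0.0038, Slc38a7 at -0.091, Nupr1 at -0.0070, Lonp1 at -0.055 and Clpp at -0.11. With the libraries summed Slc38a7 was at -0.0036 and Clpp at -0.0051. Atf3 ranged from -2.01 to 0.43 over single libraries left out.

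Depth limits Phgdh, Chac1, Psat1 and Trib3, which had under 100 reads in every library.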
